A study of Homo sapiens with 8 samples.

Results

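The genes described are 251 noncoding RNA genes that were well counted in Hep3B cells, out of 14824 genes found in both deposited tables. They were chosen by their names and their summed counts: every transcript listed for the gene carried a RefSeq noncoding identifier, and the gene summed to 500 or more counts over the 4 libraries of each table. Of 1519 genes with only noncoding transcripts, 257 reached that sum, and 6 symbols of short RNAs, cytochrome P450 genes and numbered zinc finger genes were left out. Just inside the threshold, the smaller of the table sums was 504.6 for STARD7-AS1, 505 for IPO5P1 and 505 for MGC27345, and just outside it was 497 for LOC403323, 496.4 for RP9P and 496 for SLC25A25-AS1. The sums chose the genes, so the levels are a description. The rule did not use the differences between conditions, but it was set with earlier results of these data known. A gene low in the control libraries of a table could still reach the sum through the treated ones.

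Hep3B is a human hepatocellular carcinoma cell line, and its polyadenylated RNA was read out in 4 conditions with 2 libraries each, 8 in all. Of the deposited tables, 1 holds wild-type Hep3B cells and Hep3B cells labelled SOX4 knockout, which were made with CRISPR/Cas9 and grown with puromycin, and the other holds Hep3B cells transfected with a control siRNA and Hep3B cells transfected with a siRNA against STAT6 (STAT6 si). Per the study's methods the sequenced knockout cells were lines #1 and #2. Each of the 2 knockout-labelled libraries may thus stand for a line of its own, but no label matches library to line. A difference between the lines cannot be told apart from a difference between libraries. SOX4 and STAT6 are transcription factors, and the tables address which RNAs differ when either is lost. SOX4 stood at 799 and 266 CPM (counts scaled to library size within a table) in Hep3B 1 and 2, against 298 and 302 in the knockout-labelled libraries. The knockout-labelled values lie between the Hep3B values (log2 fold change -0.83, edgeR's adjusted p = 0.372), and an RNA level does not check a lesion in the coding sequence. STAT6 had 42.5 and 31.4 CPM with control si and 9.92 and 5.98 with STAT6 si, which do not overlap (log2 fold change -2.22, edgeR's adjusted p = 1). In the knockout table STAT6 fell from 32.0 and 13.2 CPM in Hep3B to 2.76 and 2.20 (log2 fold change -3.18, edgeR's adjusted p = 0.0275), so STAT6 RNA was low in both perturbations compared here.

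Hepatocyte markers summed to between 11500 and 45600 CPM in the 4 conditions, highest in the knockout-labelled libraries. The largest parts of the sum there were ALB and SERPINA1, which did not pass edgeR's test at an adjusted p below 0.05. ALB had 7458 and 6824 CPM in Hep3B, against 28440 and 13640 in the knockout-labelled libraries. TTR, APOA1 and FGB made up little of the sum but passed the test, all higher. Only AFP among the hepatocyte markers had a log2 fold change below 0 (-0.76), and it did not pass. Of the 8 markers of leukocytes, endothelial cells and fibroblasts, CD3E, CDH5 and DCN had no row in either table, PTPRC stayed at or under 0.227 CPM in the knockout table and had no row in the siRNA table, and CD68, which carcinoma cells also express, made up nearly all of the leukocyte sum. PDGFRB, a fibroblast marker, rose from 2.84 and 1.27 CPM in Hep3B to 9.88 and 13.9 in the knockout-labelled libraries (edgeR's adjusted p = 0.0494). The part of these markers in the results was not tested. Library totals ranged from 16266282 to 25353113 counts.

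Noncoding RNA genes do their work as RNA. Some sit at fixed places in the nucleus, some pair with or flank a coding gene, and many serve as hosts. In a host gene the spliced exons are often short-lived, and the introns carry small nucleolar RNAs (snoRNAs), which guide chemical modification and processing of ribosomal RNA, or a microRNA. Pseudogenes are copies of coding genes that have lost the reading frame.

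The name long noncoding RNA held for only part of the 251. RefSeq lists 125 as long noncoding RNA, 96 as transcribed pseudogenes, 14 as protein coding today (TUG1 and MPC2 among them) and 2 as ribosomal RNA, and 11 had no RefSeq entry. By position against GENCODE and RefSeq genes, 19 were snoRNA hosts, 8 microRNA hosts, 49 antisense to a coding gene, 14 divergent (starting within 1000 bases of a coding gene's start on the other strand), 8 overlapping a coding gene on its own strand, 44 intergenic, 98 pseudogenes, 3 ribosomal RNA rows and 8 unclassified. RNA28S5 had 6044 and 3265 CPM in Hep3B, against 6716 and 7031 in the knockout-labelled libraries, RNA18S5 had 4123 and 1427, against 6377 and 6873, and RNA45S5 had 209 and 187, against 123 and 151. How much of these rows survives the selection of polyadenylated RNA was not tested. Together the 251 genes took between 1.66% and 3.88% of a library's counts. The 3 ribosomal RNA rows, RNA28S5, RNA18S5 and RNA45S5, took 0.51% to 1.86%, and H19 took 0.104% to 0.956%.

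In the libraries labelled SOX4 knockout, 6 of the 251 genes passed edgeR's quasi-likelihood test at a Benjamini-Hochberg adjusted p below 0.05, 4 lower and 2 higher. Over all 14415 genes tested, 5.89% passed, 1.39% lower and 4.50% higher, so the 2.39% of noncoding genes that passed is below the background. The leading difference by class was in the snoRNA hosts, described first, where all 19 had a log2 fold change below 0 with a median of -1.51, against a median of 0.01 over all genes, but 1 of 19, ZFAS1, passed the test. With DESeq2's Wald test, 35 of the 251 passed (29 lower, 6 higher), which is 13.9% against 15.0% of all genes, and 11 of the 19 snoRNA hosts were among them, all lower.

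ZFAS1 carries SNORD12, SNORD12B and SNORD12C in its introns and starts beside the coding gene ZNFX1 on the other strand (GRCh38, chr20:49278178-49289258, plus strand). Its level was 284 and 129 CPM in Hep3B 1 and 2, against 57.8 and 53.1 in the knockout-labelled libraries. Both Hep3B libraries lay above both knockout-labelled ones, and ZFAS1 fell 3.73-fold (log2 fold change -1.90, standard error 0.44, edgeR's adjusted p = 0.0499). Its neighbour ZNFX1, which codes for a zinc finger helicase, had 45.4 and 52.5 CPM in Hep3B, against 46.8 and 58.6 in the knockout-labelled libraries (log2 fold change 0.11, standard error 0.34, edgeR's adjusted p = 0.873). The ranges of ZNFX1 overlap. Of the 5 ZFAS1 transcripts in the tables, NR_003604 went from 128.5 and 71.1 CPM in Hep3B to 15.1 and 13.1, while NR_003606 had 6.95 and 4.35 in Hep3B, against 4.61 and 4.39 in the knockout-labelled libraries. Estimates for transcripts of 1 gene share reads, so this split is uncertain.

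The hosts that follow had values in the same order without passing the test. SNHG1, which carries 8 snoRNAs, had 177 and 66.5 CPM in Hep3B, against 26.9 and 31.3 in the knockout-labelled libraries (log2 fold change -2.06, standard error 0.50, edgeR's adjusted p = 0.0539). SNHG17, which carries 4 snoRNAs of the SNORA71 family, had 85.5 and 66.2 in Hep3B, against 16.2 and 29.1 in the knockout-labelled libraries (log2 fold change -1.74, standard error 0.42, edgeR's adjusted p = 0.0519). In neither gene did the groups overlap, and both adjusted p-values missed 0.05 by a small margin. GAS5, named for growth arrest and carrying 11 snoRNAs, had 44.4 and 23.7 in Hep3B, against 11.7 in each knockout-labelled library (log2 fold change -1.54, standard error 0.43, edgeR's adjusted p = 0.0763). EPB41L4A-AS1, host of SNORA13, had 48.1 and 13.3 in Hep3B, against 8.18 and 5.61 in the knockout-labelled libraries (log2 fold change -2.15, standard error 0.63, edgeR's adjusted p = 0.0851). SNHG15, host of SNORA9, had 26.4 and 21.8 in Hep3B, against 2.99 and 7.97 in the knockout-labelled libraries (log2 fold change -2.14, standard error 0.55, edgeR's adjusted p = 0.0616). These 3 also showed no overlap between the groups.

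Every host had a log2 fold change below 0 in the knockout-labelled libraries, so a shared start sequence can be looked for. The starts of 5 hosts are shown as examples. They were not picked by a set rule and do not stand for all hosts, and counts over every host with a start window follow. Each line gives 50 bases before a RefSeq start in lower case and the 50 bases from that start in capitals (RefSeq, GRCh38.p14). ZFAS1 is at chr20:49278592-49278691 on the plus strand, SNHG1 at chr11:62855836-62855935 on the minus strand, EPB41L4A-AS1 at chr5:112160476-112160575 on the plus strand, SNHG17 at chr20:38435279-38435378 on the minus strand and SNHG7, host of 2 snoRNAs of the SNORA17 family and named after its values were seen, at chr9:136728135-136728234 on the minus strand. The ZFAS1 start shown is that of transcript NR_036659 and lies inside the gene span given above, and the other ZFAS1 transcripts, NR_003604 among them, are listed with a start farther upstream. The SNHG17 start shown lies between the listed starts of its transcripts, 38435375 for NR_027241 and 38435319 for NR_015366. Most of its lower-case bases therefore lie inside NR_027241 as listed.
ZFAS1: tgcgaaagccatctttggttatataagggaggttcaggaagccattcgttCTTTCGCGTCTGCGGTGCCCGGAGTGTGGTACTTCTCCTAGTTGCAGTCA
SNHG1: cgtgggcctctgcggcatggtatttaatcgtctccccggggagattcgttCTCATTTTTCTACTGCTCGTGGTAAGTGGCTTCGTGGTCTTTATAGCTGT
EPB41L4A-AS1: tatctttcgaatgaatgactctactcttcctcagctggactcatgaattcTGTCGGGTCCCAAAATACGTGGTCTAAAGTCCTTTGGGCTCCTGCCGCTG
SNHG17: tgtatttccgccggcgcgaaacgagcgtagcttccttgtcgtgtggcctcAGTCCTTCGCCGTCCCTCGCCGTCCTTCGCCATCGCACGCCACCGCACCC
SNHG7: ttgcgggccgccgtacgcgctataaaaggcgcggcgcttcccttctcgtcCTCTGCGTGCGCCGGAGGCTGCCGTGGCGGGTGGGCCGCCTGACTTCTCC

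The letters TATAA, on the gene's own strand, lie in the 50 bases before the start in ZFAS1, SNHG7 and SNHG8, 3 of the 17 hosts with a RefSeq start window, and in 5.96% of all 27305 genes with one. A C at the start followed by 4 C or T bases, the letters of a terminal oligopyrimidine start, was in 1 of 17 hosts (ZFAS1) and 5.14% of all genes. Over the whole 300-base windows and on both strands, SOX heptamers with the letters CAAAG after any pair of A or T bases were in 0 of 17 hosts and 16.4% of all genes. With CAATG allowed as well, a form searched later, they were in 1 of 17 hosts (EPB41L4A-AS1) and 23.9% of all genes. On both strands, TTCNNNNGAA, the spacing that STAT6 prefers, was in 2 of 17 hosts (SNHG1 and EPB41L4A-AS1) and 7.80% of all genes. These are letter matches in short windows and do not show binding or its absence. The TATAA and pyrimidine matches of ZFAS1 are at the start of NR_036659, inside the listed spans of its other transcripts.

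Among the remaining hosts, named after their values were seen where they were not on the fixed list, the log2 fold change ran from -1.73 for LOC105371743 (standard error 0.44) to -0.63 for the readthrough gene EEF1E1-BLOC1S5 (standard error 0.34). SNHG7 had 197 and 65.9 CPM in Hep3B, against 54.4 and 36.7 in the knockout-labelled libraries. DANCR, host of SNORA26, had 142 and 41.1 in Hep3B, against 51 and 54.9 in the knockout-labelled libraries (log2 fold change -0.79, standard error 0.55, edgeR's adjusted p = 0.400). Both knockout-labelled values of DANCR lie between the Hep3B values. SNHG8, host of SNORA24, had 58.2 and 17.7 in Hep3B, against 17.9 and 12.3 in the knockout-labelled libraries, so its groups overlap by a small margin (log2 fold change -1.33, standard error 0.57, edgeR's adjusted p = 0.193). SNHG6, host of SNORD87, had 43.7 and 23.7 in Hep3B, against 15.5 and 8.14 in the knockout-labelled libraries, with no overlap (log2 fold change -1.51, standard error 0.49, edgeR's adjusted p = 0.106). LRRC75A-AS1, now named SNHG29 and host of 3 snoRNAs, had 551 and 317 in Hep3B, against 259 and 279 in the knockout-labelled libraries (log2 fold change -0.69, standard error 0.42, edgeR's adjusted p = 0.332).

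In 17 of the 19 hosts both knockout-labelled libraries lay below both Hep3B libraries, and over all 14415 genes this was so in 27.4%. Over the 251 noncoding genes it was so in 98 (39.0%), and 45 (17.9%) lay above in both, against 30.6% of all genes. The Hep3B libraries differed from each other in the hosts: Hep3B 1 was above Hep3B 2 in 16 of 19, with a median log2 ratio of 0.87, against 0.00 over all genes. Without Hep3B 1 the median host log2 fold change was -1.08, with 18 of 19 below 0 (DANCR was above), and without Hep3B 2 it was -1.79, with 19 of 19 below. It was -1.54 without knockout library 1 and -1.34 without knockout library 2, with 19 of 19 below 0 in each. The number of hosts that passed edgeR's test at an adjusted p below 0.05 was 5 without Hep3B 1, 11 without Hep3B 2 and 0 without either knockout-labelled library. The share of all genes that passed also moved, to 15.3% without Hep3B 1, 8.89% without Hep3B 2, 0.526% without knockout library 1 and 0.12% without knockout library 2. The readthrough genes ATP6V1G2-DDX39B and EEF1E1-BLOC1S5 share exons with coding genes, and the median over the other 17 hosts was also -1.51. With no library left out, edgeR called 3 hosts with median-of-ratios factors (6.55% of all genes) and 5 with the library number as a block (6.83%). It called 2 with GC and length offsets (4.11%) and 0 with these offsets and the block (0.479%). With no filter on low counts (4.63%) or at least 10 counts in every library (4.0%), 0 hosts were called.

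**Figure D1:**
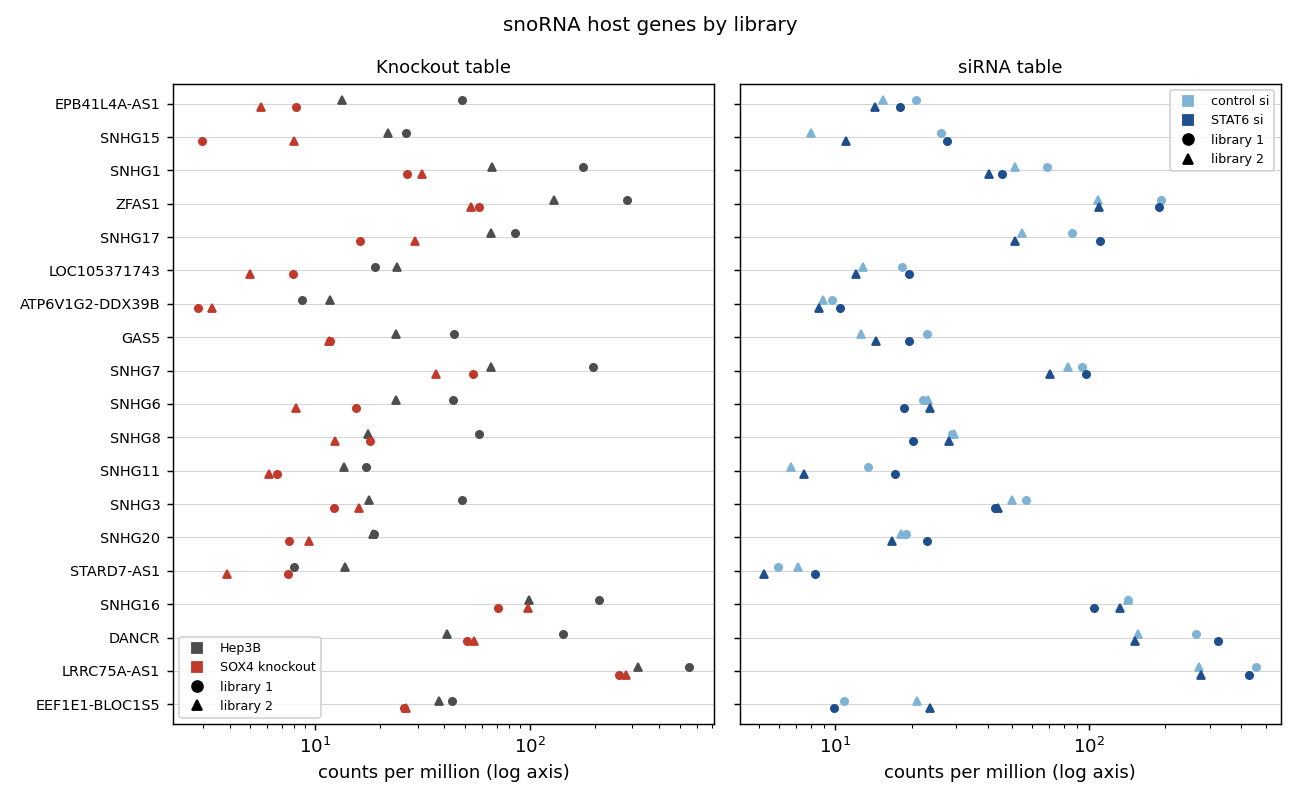
CPM (log axis) of the 19 snoRNA host genes in each library, with the knockout table on the left and the siRNA table on the right. Colours mark conditions, circles library 1 and triangles library 2. In 17 of 19 hosts both SOX4 knockout points lie left of both Hep3B points. The STAT6 si and control si points overlap in 15 of 19, and in the other 4 both STAT6 si points lie left of both control si points.

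Proteins of snoRNPs, the particles of snoRNA and protein, and of their assembly were set beside the hosts. Of 16 snoRNP proteins on a fixed list, 13 had a log2 fold change below 0 in the knockout-labelled libraries, and the median was -0.68. Only 1 passed edgeR's adjusted test (6.25%, near the 5.89% of all genes). It was NOP58, a core protein of box C/D snoRNPs, which fell (log2 fold change -1.56, standard error 0.33, edgeR's adjusted p = 0.0403). An unadjusted p below 0.05 was seen in 5 (31.2%), all lower, against 26.0% of all genes. Of 18 nonsense-mediated decay factors, the pathway that removes many spliced host RNAs, 15 were below 0 with a median of -0.57, and 0 passed edgeR's adjusted test, while 3 (16.7%) had an unadjusted p below 0.05, all lower, against 26.0% of all genes. Of 78 cytosolic ribosomal proteins, 71 were below 0 with a median of -0.28, and 0 passed, with 2 (2.56%) at an unadjusted p below 0.05. Without Hep3B 1 the ribosomal protein median was 0.02 with 37 of 78 below 0, and without Hep3B 2 it was -0.62 with 76 of 78 below 0. Over all genes, 49.6% were below 0.

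The other genes that passed the test lie in different classes. EMC3-AS1, antisense to EMC3, a subunit of the endoplasmic reticulum membrane protein complex (chr3:9986893-10007003, plus strand), had 38.5 and 53.6 CPM in Hep3B, against 11.7 in each knockout-labelled library. The groups lie well apart, and EMC3-AS1 fell 3.94-fold (log2 fold change -1.98, standard error 0.38, edgeR's adjusted p = 0.0319). EMC3 itself had 52.3 and 108.5 CPM in Hep3B, against 51.7 and 58.2 in the knockout-labelled libraries, which overlap (log2 fold change -0.55, standard error 0.42, edgeR's adjusted p = 0.444). Reads of such a pair can only be told apart by strand: the kit marks strand, and whether counting used it is not given in the sources used here.

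LOC100506548 (chr5:40825263-40829142), with no strand in the annotations used, lies over the ribosomal protein gene RPL37. It had 71.0 and 90.6 CPM in Hep3B, against 26.0 and 17.3 in the knockout-labelled libraries, with no overlap, and fell (log2 fold change -1.90, standard error 0.38, edgeR's adjusted p = 0.0365). RPL37 had 665 and 387 in Hep3B, against 399 and 429 in the knockout-labelled libraries, with both of the latter inside the Hep3B range (log2 fold change -0.34, standard error 0.42, edgeR's adjusted p = 0.647). GOLGA2P10, a pseudogene of the Golgi matrix gene GOLGA2 (chr15:82471477-82513999, minus strand), had 30.1 and 17.1 in Hep3B, against 5.60 and 5.72 in the knockout-labelled libraries. It fell 4.16-fold (log2 fold change -2.06, standard error 0.46, edgeR's adjusted p = 0.0441), its groups did not overlap, and GOLGA2 was at -0.26 on the log2 scale (standard error 0.34, edgeR's adjusted p = 0.666). LOC727751, another of the pseudogenes described and named after its values were seen, is listed on nearly the same span (chr15:82471482-82513995). Reads shared by GOLGA2P10 and LOC727751 cannot be assigned to either from these counts.

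LOC100130111, now named LCIIAR (chr15:29674935-29679163, plus strand), had 1.59 and 1.11 CPM in Hep3B, against 24.2 and 7.97 in the knockout-labelled libraries. Both knockout-labelled values stand far above both Hep3B values, and the gene rose 11.9-fold (log2 fold change 3.58, standard error 0.68, edgeR's adjusted p = 0.0319). It reached the count minimum in the knockout table only through the knockout-labelled libraries, so its choice was not independent of this rise. In the siRNA table, scaled separately, it had 12.9 and 6.44 with control si and 15.1 and 7.06 with STAT6 si, all above the Hep3B values and near those labelled SOX4 knockout. It is intergenic in GENCODE, while the RefSeq span of ENTREP2, which was not tested in the knockout table, covers it.
LOC101927181 (chr7:2437763-2447850, plus strand) overlaps CHST12, a chondroitin sulfotransferase gene, on the same strand. It had 3.29 and 4.27 CPM in Hep3B, against 28.1 and 11.7 in the knockout-labelled libraries, which do not overlap, and rose (log2 fold change 2.40, standard error 0.55, edgeR's adjusted p = 0.0494). Like LOC100130111, it reached the count minimum only through the knockout-labelled libraries. CHST12 rose with it, from 25.4 and 15.5 to 124 and 78.5 CPM (log2 fold change 2.31, standard error 0.43, edgeR's adjusted p = 0.0302), and reads of the shared stretch cannot be assigned to either from these counts.

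Each of the 6 calls was lost when either knockout-labelled library was left out, and each held without either Hep3B library. The folds without knockout library 1 and 2 were -1.95 and -1.86 for ZFAS1, -1.96 and -2.02 for EMC3-AS1, -2.03 and -2.10 for GOLGA2P10, -2.21 and -1.67 for LOC100506548, 2.57 and 4.14 for LOC100130111 and 1.64 and 2.86 for LOC101927181, on the log2 scale. For ZFAS1 the log2 fold change was -1.28 without Hep3B 1. By edgeR's adjusted p, ZFAS1 was not called with no filter on low counts (0.0535), with at least 10 counts in every library (0.0557) or with GC and length offsets (0.0588). LOC101927181 was not called with the 10-count minimum (0.0546) or the offsets (0.0781), and GOLGA2P10 not with the 10-count minimum (0.0528).

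MALAT1 and NEAT1, neighbours on chromosome 11 that mark nuclear speckles and build paraspeckles, stood high in knockout library 1. MALAT1 had 83.7 and 46.0 CPM in Hep3B, against 318 and 66.4 in the knockout-labelled libraries (log2 fold change 1.57, standard error 0.69, edgeR's adjusted p = 0.198). Knockout library 2 lies between the Hep3B values, so the difference rests on 1 library: without knockout library 1 the log2 fold change was 0.04. NEAT1 had 40.0 and 83.0 in Hep3B, against 275 and 86.8 in the knockout-labelled libraries (log2 fold change 1.56, standard error 0.60, edgeR's adjusted p = 0.153). Its groups do not overlap, yet knockout library 2 is only just above Hep3B 2, and without knockout library 1 the log2 fold change was 0.51. The short polyadenylated NEAT1 transcript NR_028272 had 28.3 and 72.4 CPM in Hep3B, against 194 and 74.3 in the knockout-labelled libraries, and the long transcript NR_131012, which holds paraspeckles together, had 11.7 and 10.5 in Hep3B, against 80.9 and 12.4 in the knockout-labelled libraries. Both transcripts share the high value in knockout library 1. The span of the short transcript lies inside that of the long one, so this split is uncertain. Of 16 paraspeckle proteins, 14 were below 0 with a median of -0.32, and of 15 nuclear speckle proteins, 11 were below 0 with a median of -0.56. By edgeR's adjusted p, 0 of these 31 passed, and 1 paraspeckle (6.25%) and 2 nuclear speckle proteins (13.3%) had an unadjusted p below 0.05, against 26.0% of all genes.

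H19, an imprinted fetal RNA of liver that carries MIR675, was the most counted of the 251 genes after RNA28S5 and RNA18S5 over the 8 libraries together. Its levels were 3856 and 990 CPM in Hep3B, 3717 and 3098 in the knockout-labelled libraries, 6882 and 3751 with control si and 11428 and 5456 with STAT6 si. Hep3B 2 stands apart as low, the groups overlap in both tables, and the knockout-labelled libraries gave a log2 fold change of 0.49 (standard error 0.70, edgeR's adjusted p = 0.694). Per 1000 bases of transcript, H19 was at 1643 and 422 CPM in Hep3B and MALAT1 at 9.61 and 5.29. How far the selection of polyadenylated RNA sets these levels apart was not tested. UCA1, first described in bladder carcinoma, had 64.0 and 3.16 CPM in Hep3B, 135 and 87.4 in the knockout-labelled libraries, 101 and 101 with control si and 85.1 and 100 with STAT6 si. Hep3B 2 is the only library under 60, and the log2 fold change of 1.73 had a standard error of 1.04 (edgeR's adjusted p = 0.335). Without Hep3B 2 it was 0.79, and without Hep3B 1 it was 5.07 and passed the test.

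TUG1 and NORAD are long RNAs found in many cell types. TUG1 had 358 and 429 CPM in Hep3B, 290 and 218 in the knockout-labelled libraries, 87.3 and 244 with control si and 78.0 and 213 with STAT6 si. NORAD, which binds Pumilio proteins, had 347 and 474 in Hep3B, 350 and 290 in the knockout-labelled libraries, 88.5 and 220 with control si and 70.5 and 161 with STAT6 si. In the siRNA table library 1 is low for both RNAs in either condition. MIR22HG, host of MIR22, had 61.1 and 54.7 in Hep3B, against 34.8 and 28.1 in the knockout-labelled libraries, with no overlap (log2 fold change -0.88, standard error 0.35, edgeR's adjusted p = 0.161). HULC, a liver cancer RNA, had 45.1 and 19.7 in Hep3B, against 25.2 and 18.0 in the knockout-labelled libraries, which overlap (log2 fold change -0.59, standard error 0.47, edgeR's adjusted p = 0.467). The log2 fold change was -0.30 for LINC00152, now named CYTOR (standard error 0.59), -0.32 for OIP5-AS1 (standard error 0.35) and 1.59 for TP53TG1 (standard error 0.56), and none of the 3 passed edgeR's test at an adjusted p below 0.05.

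**Figure D2:**
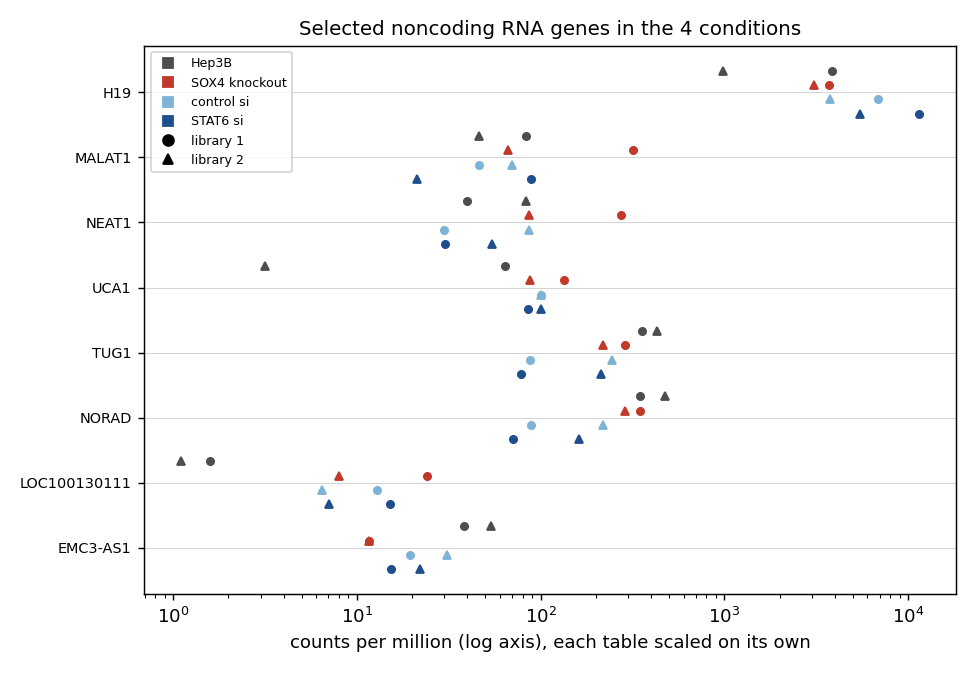
CPM (log axis, each table scaled on its own) of 8 noncoding RNA genes in every library, with colours for the 4 conditions, circles for library 1 and triangles for library 2. Hep3B 2 is the lone low point of H19 and UCA1, knockout library 1 is the lone high point of MALAT1 and NEAT1, and the Hep3B points of LOC100130111 lie at 1.59 and 1.11, below all other libraries.

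The medians of the other classes were smaller in size than that of the snoRNA hosts, most of them also below 0. Of the 49 antisense genes, 30 had a log2 fold change above 0 in the knockout-labelled libraries (median 0.23), and 1 passed, EMC3-AS1. Of 44 intergenic genes, 32 were below 0 (median -0.31), of 98 pseudogenes 71 (median -0.30), of 8 microRNA hosts 5 (median -0.30) and of 14 divergent genes 7 (median 0.01). Without Hep3B 2 the antisense median was 0.00 with 25 of 49 below 0, and without knockout library 1 it was 0.07. Without Hep3B 1 the antisense median was 0.38, and 23 of 44 intergenic genes were below 0 (median -0.11). Over the 232 genes that are not snoRNA hosts, 147 were below 0 and the median was -0.25. BAIAP2-AS1, divergent to the membrane scaffold gene BAIAP2 and named after its values were seen, had 5.56 and 9.71 CPM in Hep3B, against 27.3 and 26.1 in the knockout-labelled libraries, and BAIAP2 had a log2 fold change of 0.20 (edgeR's adjusted p = 0.798). The classes overlap widely in the plot by class, except that no snoRNA host lies above -0.63.

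**Figure D3:**
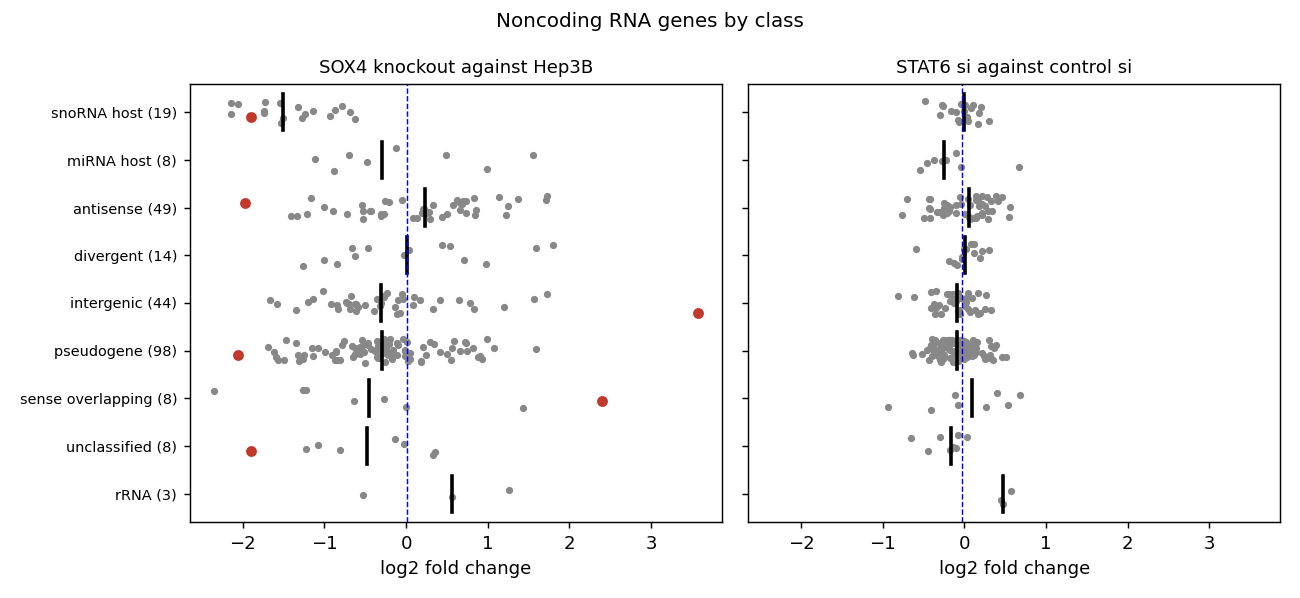
Log2 fold change of each of the 251 noncoding RNA genes by class (number of genes in brackets), for SOX4 knockout against Hep3B on the left and STAT6 si against control si on the right. Black bars are class medians, dashed lines the median of all genes tested, and red points the 6 genes with an adjusted p below 0.05; the snoRNA host median is -1.51 on the left and -0.01 on the right.

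Most pseudogenes had the sign of the coding gene they copy. Of 53 pseudogenes whose symbol names a tested coding gene, 47 had the same sign of log2 fold change as that gene in the knockout-labelled libraries, and 19 were within 0.1 of it. ANXA2P2 had 306 and 339 CPM in Hep3B, against 336 and 617 in the knockout-labelled libraries (log2 fold change 0.56, standard error 0.43), against 0.56 for the annexin gene ANXA2 (standard error 0.43). RPL13AP5 had 2088 and 1058 CPM in Hep3B, against 1166 and 1288 in the knockout-labelled libraries (log2 fold change -0.36, standard error 0.51), and the ribosomal protein gene RPL13A had -0.38 (standard error 0.51). H3F3AP4, a copy of the histone gene H3F3A, stood at 0.05 on the log2 scale (standard error 0.37), against 0.06 for H3F3A (standard error 0.34). Near-identical copies share reads, so where a pseudogene is such a copy, it and its parent cannot be told apart in these counts. GOLGA2P10 is among 10 pseudogenes that were more than 1 from the parent, and Spearman's rho over the 53 pairs was 0.48.
For divergent genes, 11 of 14 had the sign of the coding neighbour (Spearman's rho 0.66 over 14 pairs), and for antisense genes with a single coding partner 28 of 41 had (Spearman's rho 0.33 over 41 pairs). These are descriptions across genes of the same 4 libraries, and genes are not independent replicates.

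**Figure D4:**
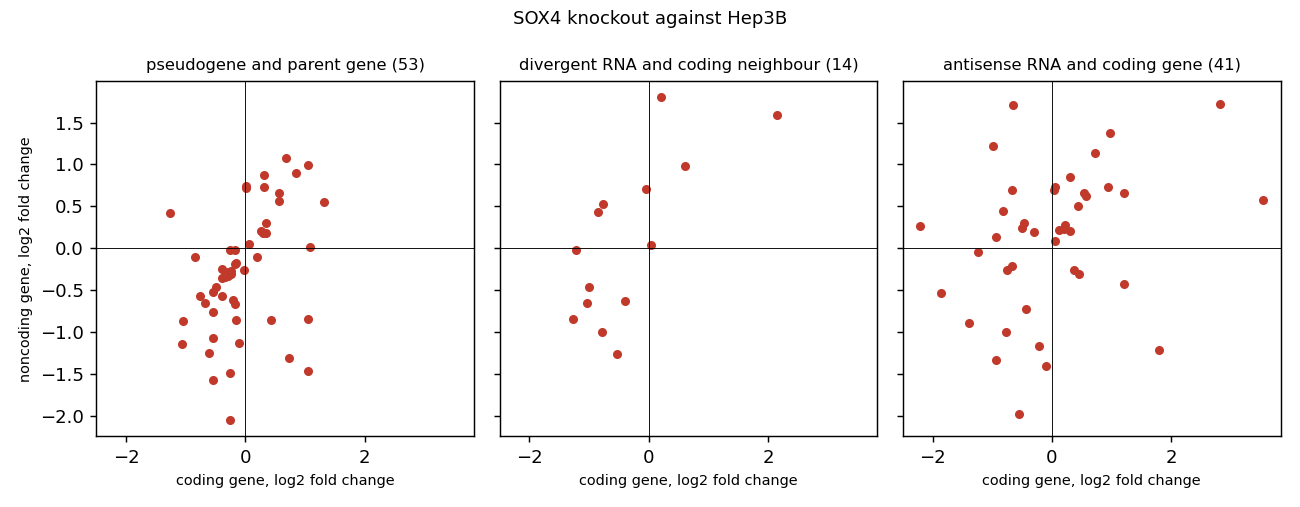
Log2 fold change of noncoding genes (vertical axis) against that of the coding gene they are paired with (horizontal axis) for SOX4 knockout against Hep3B, each point 1 pair. The sign is shared in 47 of 53 pseudogene pairs (Spearman's rho 0.48), 11 of 14 divergent pairs (0.66) and 28 of 41 antisense pairs (0.33).

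With STAT6 si, 0 of the 251 noncoding genes passed edgeR's quasi-likelihood test after Benjamini-Hochberg adjustment, as did 0% of the 13554 genes tested, and DESeq2 also called 0. At an unadjusted p below 0.05 there were 0 of the 251, and 14 genes (0.103%) over the table. Their log2 fold changes ran from -0.93 to 0.68 with a median of -0.07, against -0.03 over all genes. Both STAT6 si libraries lay below both control si libraries in 27 of the 251 (10.8%, against 5.25% of all genes) and above in 3 (1.20%, against 2.74%). Same-numbered libraries of the siRNA table deviated together (r = 0.93 over 10169 genes), and this test did not use the library number. STAT6, the target of the siRNA, did not pass the test either, so 0 calls do not show that these RNAs were unchanged.

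The 5 genes of lowest p with STAT6 si were LOC100630923, H19, TEN1-CDK3, LOC389332 and LOC728323. LOC100630923, which overlaps the splicing factor gene PRKRIP1 on the same strand, had 6.05 and 11.3 CPM with control si and 4.33 and 4.79 with STAT6 si. These groups do not overlap (log2 fold change -0.93, standard error 0.75). The imprinted H19 stood at a log2 fold change of 0.67 (standard error 0.63), with STAT6 si library 2 inside the range of the controls. The readthrough gene TEN1-CDK3 had 9.16 and 8.98 with control si and 6.76 and 3.96 with STAT6 si (log2 fold change -0.76, standard error 0.75). LOC389332 had 98.8 and 41.0 with control si and 166 and 57.5 with STAT6 si, and LOC728323, now named LINC01881, had 4.69 and 11.8 with control si and 2.35 and 6.97 with STAT6 si. In the last pair the groups overlap, and library 1 lies on the same side of library 2 in either condition.

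The 19 snoRNA hosts had a median log2 fold change of -0.01 with STAT6 si, 10 below 0 and 9 above, from -0.48 for SNHG1 to 0.30 for SNHG11. ZFAS1 had 193 and 109 CPM with control si and 190 and 110 with STAT6 si. GAS5 had 23.0 and 12.6 with control si and 19.5 and 14.4 with STAT6 si, and SNHG17 had 86.3 and 54.4 with control si and 111 and 51.1 with STAT6 si. Each of these RNAs overlaps between the conditions, and library 1 is above library 2 in each. SNHG1 had 68.6 and 51.2 with control si and 45.5 and 40.4 with STAT6 si, with no overlap. Both STAT6 si libraries lay below both control si libraries in 4 of the 19 hosts (21.1%, against 5.25% of all genes). They lay above in 0 hosts, against 2.74% of all genes.

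Whether the effects of the knockout label and of STAT6 si differ was tested as a contrast over all 8 libraries. Of the 251 noncoding genes 0 passed edgeR's quasi-likelihood test after Benjamini-Hochberg adjustment, against 0.0769% of 14313 genes, and DESeq2 also called 0 of the 251. At an unadjusted p below 0.05 there were 14 of the 251 (5.58%, 13 of them lower), against 6.56% of all genes. The 5 of lowest p were LOC100130111, CCL15-CCL14, GOLGA2P10, ZFAS1 and SNHG17. LOC100130111 had a difference of 3.25 on the log2 scale (standard error 0.99, edgeR's adjusted p = 0.328), and the chemokine readthrough gene CCL15-CCL14 one of -2.88 (standard error 0.89, edgeR's adjusted p = 0.341). The difference was -2.20 for GOLGA2P10, -2.01 for ZFAS1 and -2.07 for SNHG17, with edgeR's adjusted p at 0.541, 0.578 and 0.581. In the 19 snoRNA hosts the difference was below 0 in all 19, with a median of -1.57 against -0.09 over all genes, and 7 had an unadjusted p below 0.05, so a difference between the perturbations was not shown for any single host.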

How the data were processed

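RNA of 8 Hep3B samples was isolated with TRIzol, and libraries were made with a stranded mRNA kit. The authors deposited 2 tables of expected counts by RefSeq transcript, which are fractional estimates without normalization. The submitters' processing notes name STAR, Partek and hg38, and versions and strand setting are not given in the sources used here. The smallest sum of a listed transcript over its 4 libraries is 10.

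Expected counts of a gene's transcripts were added up, then rounded. The fixed design allowed for this unit. The tables were fitted separately with edgeR 4.0.16 under R 4.3.3, using filterByExpr, TMM factors and glmQLFit with glmQLFTest. The p-values were Benjamini-Hochberg adjusted over all genes tested, and 0.05 was the threshold. The difference of both effects was a contrast over 8 libraries. CPM is TMM-scaled per table. Levels per 1000 bases used the mean GENCODE release 29 transcript length, weighted by counts. All 251 genes passed the filter on low counts in both tables. RefSeq entries matched 240 genes (224 by accession), strands were found for 225, and GC content and length for 216.

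Members, classes and gene lists were chosen with earlier results of these data known. Genes named are those that passed, with both treated libraries beyond both controls; the 5 of lowest p where fewer than 5 passed; the 8 most counted; a fixed list of known noncoding RNAs; and the coding genes overlapping or head to head with genes that passed. Others are marked as named after their values were seen. The knockout libraries come from lines #1 and #2 per the study's methods. For the other conditions nothing states separate cultures, so p-values measure the spread between these libraries, which may be technical. Counts from 16266282 to 25353113 per library limit the precision of rare RNAs. Alternatives were median-of-ratios factors, DESeq2 1.42.0, other filters on low counts, the library number as a block, GC and length offsets (mgcv 1.9.3), leaving out each library, and a minimum of 1000 counts. The steps were also run on simulated counts, with libraries drawn independently and with less spread between them than in these data. That run does not measure how many true differences could be found here.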

Additional observations from a re-analysis of the deposited data

How the results depend on the processing

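Of 251 genes, those called for the knockout label numbered 6, and 35 with DESeq2, 11 with median-of-ratios factors, 3 with at least 10 counts in every library, 10 with the library number as a replicate block, 0 with that block and GC and length offsets, and 0 to 30 with 1 library left out (30 without Hep3B 1, 28 without Hep3B 2, 0 without knockout library 1 or 2). Over all genes these settings called 2160, 944, 518, 984, 69 and 18 to 2298. With no filter, with the offsets alone and at 1000 counts the count was within 1.5 times. For STAT6 si the count was 0 in every setting but the offsets with the block, which called 10 (3.98%; 7 lower, 3 higher), against 237 of all genes (1.75%; 206 lower, 31 higher). LOC100630923 (log2 fold change -1.17, edgeR's adjusted p = 0.000521) and TEN1-CDK3 (-1.10, edgeR's adjusted p = 0.000819) were among them. For the difference of the effects it was 0 except 1 (LOC100130111) without control si 2, where 127 of all genes (0.873%) were called. The cause was not tested.

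Leaving out 1 library turned the sign of the log2 fold change for the knockout label in H19 (-0.18 to 1.72), RPL13AP5 (-0.77 to 0.15), H3F3AP4 (-0.0938 to 0.16), DANCR (-1.43 to 0.30), HULC (-1.07 to 0.069) and LINC00152 (-0.93 to 0.76), and for STAT6 si in LOC389332 (-0.28 to 1.53) and LOC728323 (-1.81 to 0.0017). The library numbers are shared between conditions, but no source says that they mark a shared culture. Same-numbered deviations correlated at r = 0.93 over 10169 genes in the siRNA table and at -0.07 over 11313 genes in the knockout table, and the block called 62 genes with STAT6 si in place of 0, none of them among the 251. With the replicate block LOC101927181 was not called for the knockout label (edgeR's adjusted p = 0.0503). Rare RNAs and the 4-library design limit what could be called.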
